A study of Mus musculus with 6 samples.

Results

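Creb3l3 encodes CREBH, a transcription factor of the liver that is held in the membrane of the endoplasmic reticulum. The 7 genes described here are Creb3l3, the genes of the site-1 and site-2 proteases that release CREBH (Mbtps1 and Mbtps2), and 4 genes reported as CREBH targets, namely Apoa4, Fgf21, Hamp and Hamp2. They are 7 of the 55802 gene symbols in the files, and all 7 were among the 17662 genes left after a filter on low counts. The set was selected on the measured difference in Creb3l3, whose low level in PS-MP livers was already known, and the other 6 genes were added for their known link to it. Differences of the 7 genes between diets are therefore a description and not a test.

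The data are read counts per gene from liver RNA of C57BL/6 males, which were kept for 71 weeks. Chow with polystyrene microplastic particles (PS-MP) was given in 3 libraries, and normal chow, called control here, in the other 3 libraries. Strain, sex and tissue are the same in both diets. No source used here states the particle size, the dose, the start of exposure or the hour of sampling. The labels do not say that replicates are separate animals, so any p-value measures the spread between these samples, which may be technical.

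CREBH travels to the Golgi when nutrients run short or the endoplasmic reticulum is stressed. There it is cut first by the site-1 protease and then by the site-2 protease, and the freed part enters the nucleus. In mouse liver it is known for switching on genes of triglyceride handling and of fasting, such as Apoa4 and Fgf21, and it was also described as an inducer of acute phase genes and of the iron hormone hepcidin. Because the protein is activated by cleavage, the amount of its mRNA is not a measure of its activity.

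The libraries held 79081889 to 79691824 counts in PS-MP and 68357478 to 112566641 in control. Levels below are CPM, the counts of a gene per 1e6 counts of its library, after scaling with TMM, the trimmed mean of M values. The TMM factors were 1.04 to 1.11 in PS-MP and 0.891 to 0.957 in control. With library totals alone, the log2 fold changes (PS-MP minus control) of all genes had a median of 0.23, against 0.02 with TMM. Reads of 18S ribosomal RNA took 0.387% to 1.14% of counts in PS-MP and 1.15% to 11.2% in control, the highest share being in control replicate 2. Summed hepatocyte markers, 8 genes with Alb and Ttr among them, stood at 62515 to 82909 CPM in PS-MP and 60184 to 73014 CPM in control. Summed markers did not overlap between diets for Kupffer cells (108 to 126 CPM in PS-MP, 74.7 to 94.6 in control), red cells (571 to 848 in PS-MP, 263 to 504 in control) and neutrophils (1.29 to 5.30 in PS-MP, 0.548 to 0.969 in control). They overlapped for sinusoidal endothelium (65.7 to 93.7 CPM in PS-MP, 59.8 to 76.4 in control), stellate cells (267 to 386 in PS-MP, 321 to 355 in control) and cholangiocytes (11.2 to 21.3 in PS-MP, 11.98 to 26.5 in control). They also overlapped for adipocytes (5.48 to 22.3 CPM in PS-MP, 2.37 to 12.3 in control), intestinal epithelium (32.2 to 90.1 in PS-MP, 53.6 to 95.9 in control) and pancreatic acinar cells (6.23 to 10.6 in PS-MP, 10.001 to 13.3 in control). Of single genes tested, 6.24% had every PS-MP level over every control level with TMM. Among the Kupffer cell markers, Marco had 738 to 1889 counts in PS-MP and 163 to 246 in control. Timd4 had 249 to 368 and 107 to 168, while the counts of Clec4f, Vsig4 and Cd5l overlapped between diets. The part of all these differences between libraries in the results below was not tested.

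Creb3l3 was low in every PS-MP library and in 1 of the 3 control libraries. It stood at 9.07, 8.82 and 9.90 CPM in PS-MP replicates 1 to 3, from 747, 779 and 848 counts. In control replicates 1 to 3 it stood at 289, 12.4 and 293 CPM, from 20962, 755 and 31002 counts. Control replicate 2 thus lay near the PS-MP libraries, while the other controls were 23.3 and 23.6 times as high as control replicate 2. With TMM a small gap remained, and the counting intervals did not meet across it. The 95% Poisson interval was 11.5 to 13.3 CPM in control replicate 2 and reached 10.6 CPM in the highest PS-MP library. These intervals cover counting error only. Counts per gene do not show whether the reads in control replicates 1 and 3 came from the Creb3l3 transcript or were assigned to it from elsewhere, which was not tested. The PS-MP libraries spanned 1.12-fold and the control libraries 23.6-fold.

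The mean was 9.27 ± 0.566 CPM in PS-MP and 198 ± 161 CPM in control (SD, n = 3 each). The fitted log2 fold change was -4.42 (SE 1.06, 95% interval -6.96 to -1.88). The quasi-likelihood test of edgeR called 0 of the 7 genes at an adjusted p of 0.05, where it called 0.0113% of all genes tested and 5.38% had an unadjusted p under 0.05. Of the 7 genes, 3 had such an unadjusted p (Creb3l3, Apoa4 and Hamp, all lower in PS-MP, where 2.58% of all genes were lower at such a p). DESeq2 called 1 of the 7, Creb3l3, where it called 1.06% of all genes, and limma-voom called 0 of the 7, where it called 0.00566% of all genes. Nothing is read from these counts, since the same contrast chose the genes. Without control replicate 2, Creb3l3 had a log2 fold change of -4.97 and an edgeR adjusted p of 0.00102, so 1 control library sets whether it is called. Over the 15 alternatives, the adjusted p of Creb3l3 ran from 9.4e-05 with DESeq2 to 0.99998 without PS-MP replicate 2.

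**Figure D1:**
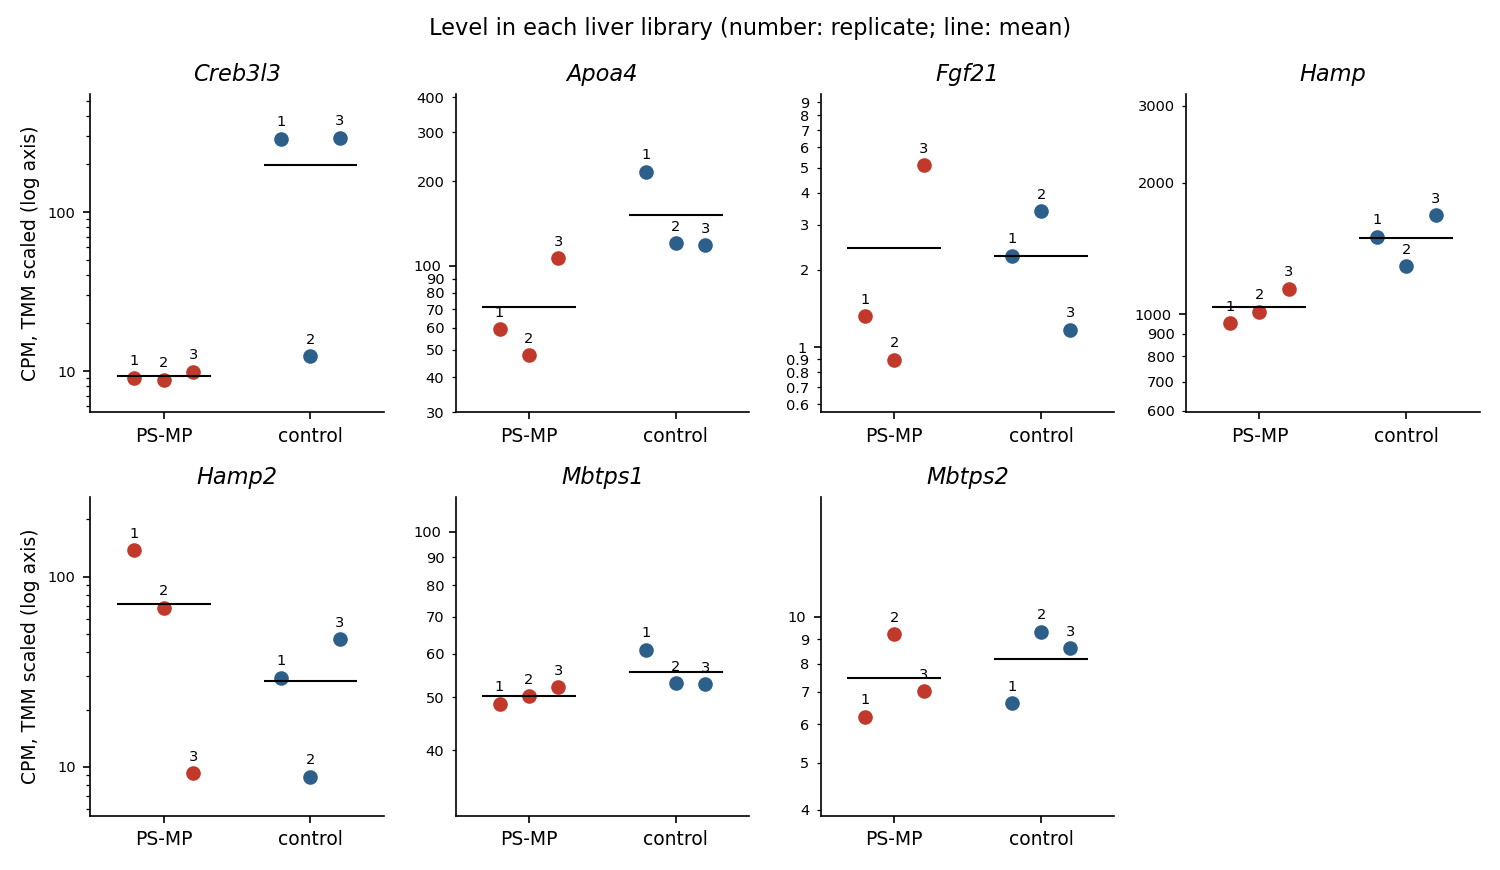
TMM-scaled CPM of the 7 genes in each library, on log axes that differ between panels, with PS-MP libraries at the left and control libraries at the right. Each point is a library with its replicate number, and the line is the mean of 3. Creb3l3 lies between 8.82 and 12.4 CPM in 4 libraries and at 289 and 293 CPM in the other two, both control.

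So wide a gap between libraries of the same diet was rare among genes of this level. Of 2482 genes tested that reached 50 CPM in some library, 24 spanned over 16-fold among the PS-MP libraries and 13 (0.524%) among the control libraries. Creb3l3 had the 8th widest span among the controls. The protein-coding genes on either side of Creb3l3, by their order in a RefSeq annotation of build GRCm38.p6, spanned far less. Thop1, which encodes a peptidase and is next to Creb3l3, stood at 6.50, 4.54 and 6.56 CPM in PS-MP and at 5.81, 4.11 and 7.17 CPM in control. Map2k2, the gene of the kinase MEK on the other side, stood at 128, 115 and 143 CPM in PS-MP and at 137, 105 and 127 CPM in control. Sgta spanned 1.36-fold and Zbtb7a 2.76-fold over the 6 libraries. The gap in Creb3l3 was therefore not shared by these 4 neighbours.

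The 250 bases before the outer of the Creb3l3 starts in RefSeq (build GRCm38.p6) are shown because, of the 7 genes, this one had the widest span over the 6 libraries. In this and the other windows, capitals would mark matches, on either strand, to TGACG (the core of the cyclic AMP response element, CRE), TGACGTCA (the full CRE, which holds the core), CCACG (the tail of an element of endoplasmic reticulum stress), AGGTCA (a core bound by nuclear receptors), GGCGCC (an element of the response to bone morphogenetic proteins, BMP) and TTCTTGGAA (an element bound by STAT3).
Creb3l3 promoter, chr10:81098873-81099122, minus strand: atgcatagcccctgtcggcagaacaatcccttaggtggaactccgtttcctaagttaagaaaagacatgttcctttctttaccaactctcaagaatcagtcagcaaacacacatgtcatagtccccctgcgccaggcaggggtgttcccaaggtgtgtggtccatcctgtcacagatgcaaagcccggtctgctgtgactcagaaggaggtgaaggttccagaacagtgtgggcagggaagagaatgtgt
None of the 6 motifs was in this window. Among 32851 promoter windows of the same length, 17.8% held TGACG, 1.55% TGACGTCA, 28.3% CCACG, 14.0% AGGTCA, 9.59% GGCGCC and 0.365% TTCTTGGAA. A match is a description of letters and not a binding site, and the absence of one says nothing of the factor.

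The genes of the proteases that cut CREBH varied little across the libraries. Mbtps1, which encodes the site-1 protease, stood at 48.6, 50.2 and 52.1 CPM in PS-MP and at 61.0, 53.0 and 52.8 CPM in control. Its mean was 50.3 ± 1.74 CPM in PS-MP and 55.6 ± 4.64 CPM in control (SD, n = 3 each; log2 fold change -0.14, interval -0.42 to 0.13). Mbtps2, which encodes the site-2 protease, stood at 6.22, 9.21 and 7.02 CPM in PS-MP and at 6.64, 9.31 and 8.61 CPM in control. Its log2 fold change was -0.13 (interval -0.67 to 0.41). A 2-fold difference lay outside the intervals of both genes, and with library totals alone both turned to small positive values, 0.067 for Mbtps1 and 0.094 for Mbtps2. In control replicate 2 neither protease gene was low as Creb3l3 was: with TMM, Mbtps1 was between control replicates 1 and 3, and Mbtps2 was the highest of the controls. With library totals alone Mbtps1 was the lowest of the controls there, at 47.2 CPM, against 58.3 and 49.7 CPM in control replicates 1 and 3.

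Apoa4 encodes an apolipoprotein of triglyceride-rich particles and is among the best described CREBH targets in mouse liver. It stood at 59.2, 48.0 and 106 CPM in PS-MP replicates 1 to 3 and at 217, 120 and 119 CPM in control replicates 1 to 3. The mean was 71.2 ± 31.0 CPM in PS-MP and 152 ± 56.3 CPM in control (SD, n = 3 each; log2 fold change -1.09, SE 0.37, interval -1.99 to -0.20). The diets did not overlap, but the highest PS-MP library was close to the lowest control, and with library totals alone they overlapped (114 CPM in PS-MP replicate 3, 107 CPM in control replicate 2). Apoa4 did not follow Creb3l3 within the controls: replicates 2 and 3 had nearly the same Apoa4 level, although Creb3l3 was 23.6 times as high in replicate 3. Within PS-MP both genes were highest in replicate 3, with a span of 1.12-fold in Creb3l3 and 2.22-fold in Apoa4. The 95% Poisson intervals of Creb3l3 overlapped among these libraries, so its order there is not resolved. Replicate 1 was above replicate 2 in Creb3l3 with TMM and below it with library totals alone (9.45 and 9.83 CPM). In bulk liver, fewer cells that make an mRNA and less of it in each cell cannot be told apart.

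Fgf21 encodes a hormone that the liver releases in fasting and other nutrient stress, under the control of PPAR-alpha and CREBH. It stood at 1.32, 0.895 and 5.12 CPM in PS-MP and at 2.27, 3.38 and 1.17 CPM in control. These levels rest on 109, 79 and 438 counts in PS-MP and 165, 206 and 124 in control, and the lowest of them had a 95% Poisson interval of 62.5 to 98.5 counts. The diets overlapped across nearly their whole range, with a mean of 2.44 ± 2.32 CPM in PS-MP and 2.28 ± 1.11 CPM in control (SD, n = 3 each; log2 fold change 0.11, interval -1.61 to 1.82). Leaving out PS-MP replicate 3 turned it to -1.05, and leaving out any other single library gave values from -0.21 to 0.51, the lowest of these without control replicate 3.

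The order of the libraries in Fgf21 was unlike that in Creb3l3. The highest Fgf21 levels were in PS-MP replicate 3 and control replicate 2, both of which had low Creb3l3, and control replicate 3, with the highest Creb3l3, had the second lowest Fgf21. Genes of fasting and of glucose output were high in the same libraries as Fgf21. Pdk4, which spares glucose in fasting by restraining pyruvate dehydrogenase, stood at 1.59, 1.73 and 14.9 CPM in PS-MP and at 13.7, 15.2 and 4.80 CPM in control. G6pc, the gene of glucose-6-phosphatase, stood at 102, 42.3 and 338 CPM in PS-MP and at 204, 235 and 95.1 CPM in control. G6pc was also the 7th nearest in pattern to Fgf21 of all genes tested, with a root mean square difference of 0.30 log2 units over the 6 libraries. Ppp1r3c, which directs glycogen synthesis, was the 3rd nearest (0.28), at 62.8, 36.0 and 147 CPM in PS-MP and 98.3, 122 and 62.6 CPM in control. The search around Fgf21 was added after the values were seen.

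The window before the Fgf21 start held a CRE core between bases 68 and 64 before the start, on the strand opposite to the gene, and CCACG at 2 places. It is shown because it was the only window among those of the 4 targets that held either of these motifs.
Fgf21 promoter, chr7:45615491-45615740 of build GRCm38.p6, minus strand, matches in capitals: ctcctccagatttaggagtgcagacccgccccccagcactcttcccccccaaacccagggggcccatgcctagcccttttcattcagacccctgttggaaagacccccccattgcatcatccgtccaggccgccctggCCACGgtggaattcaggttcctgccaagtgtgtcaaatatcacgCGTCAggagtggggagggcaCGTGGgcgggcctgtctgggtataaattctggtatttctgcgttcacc
The Apoa4 window held none of the 6 motifs.

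Hamp encodes hepcidin, the hormone that closes the iron exporter ferroportin. It stood at 953, 1011 and 1142 CPM in PS-MP and at 1503, 1288 and 1685 CPM in control. Each PS-MP library was below each control library, with a mean of 1036 ± 96.9 CPM in PS-MP and 1492 ± 199 CPM in control (SD, n = 3 each; log2 fold change -0.53, SE 0.16, interval -0.91 to -0.15). With library totals alone the log2 fold change was -0.32 and the diets overlapped (1228 CPM in PS-MP replicate 3, 1147 CPM in control replicate 2). Of the 4 targets, Hamp came closest to Creb3l3 in the order of the libraries with TMM. Both were higher in control replicates 1 and 3 than in control replicate 2, and lowest in PS-MP. Finer ranks are not resolved in Creb3l3. Its 95% Poisson intervals overlapped between control replicates 1 and 3 and among the PS-MP libraries. With library totals alone, Creb3l3 was higher in control replicate 1 than in control replicate 3 (276 and 275 CPM). The sizes were far apart: the mean of the other two controls was 23.5 times control replicate 2 in Creb3l3 and 1.24 times in Hamp.

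Hamp2, a second mouse gene next to Hamp, encodes a peptide like hepcidin. It stood at 138, 68.4 and 9.26 CPM in PS-MP and at 29.4, 8.85 and 46.9 CPM in control. The libraries of PS-MP spanned 14.9-fold and those of control 5.29-fold, and the diets overlapped (log2 fold change 1.34, SE 0.95, interval -0.94 to 3.62). The log2 fold change was 0.44 when PS-MP replicate 1 was left out. Hamp2 was lowest in control replicate 2 and PS-MP replicate 3 and highest in PS-MP replicate 1, where Creb3l3 was low. As a share of the counts of both genes it took 12.6%, 6.33% and 0.804% in PS-MP and 1.92%, 0.683% and 2.71% in control. The widest exact Clopper-Pearson interval of these shares was 12.4% to 12.9%, which covers counting error only. Hamp2 is also made in pancreas in mice; of the 5 markers of pancreatic acinar cells, Prss2, Cpa1 and Pnlip had 0 counts in all 6 libraries. Cela1 had 490, 612 and 897 counts in PS-MP and 720, 808 and 1025 in control, and Cela2a had 23, 8 and 10 in PS-MP and 14, 0 and 33 in control. The part of such cells in the Hamp2 level was not tested.

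The transcripts of Hamp and Hamp2 were identical at 92.4% of 420 aligned positions in GENCODE M21, with a longest identical stretch of 87 bases. Reads can therefore be shared between them, and the level of each is uncertain. With both genes summed, the level was 1091, 1080 and 1152 CPM in PS-MP and 1533, 1297 and 1732 CPM in control (log2 fold change -0.46, interval -0.82 to -0.09). The windows before their starts are shown together because these genes, alike in sequence, differed in how they varied between libraries. The windows were identical at 89.7% of aligned positions. Capitals mark GGCGCC and TTCTTGGAA, known in the human hepcidin promoter as elements for BMP signals and for STAT3.
Hamp promoter, chr7:30944030-30944279 of build GRCm38.p6, minus strand: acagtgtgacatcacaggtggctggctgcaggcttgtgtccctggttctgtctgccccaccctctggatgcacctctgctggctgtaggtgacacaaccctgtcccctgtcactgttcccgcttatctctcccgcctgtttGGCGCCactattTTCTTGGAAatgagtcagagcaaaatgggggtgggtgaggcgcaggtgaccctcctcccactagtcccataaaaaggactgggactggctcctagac
Hamp2 promoter, chr7:30924182-30924431 of build GRCm38.p6, minus strand: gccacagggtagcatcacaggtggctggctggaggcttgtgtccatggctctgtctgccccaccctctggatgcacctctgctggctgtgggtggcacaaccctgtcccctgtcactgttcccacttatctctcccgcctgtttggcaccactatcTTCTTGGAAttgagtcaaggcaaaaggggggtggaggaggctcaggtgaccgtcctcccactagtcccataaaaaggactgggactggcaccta
TTCTTGGAA was in both windows, and GGCGCC was in that of Hamp and not in that of Hamp2.

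**Figure D2:**
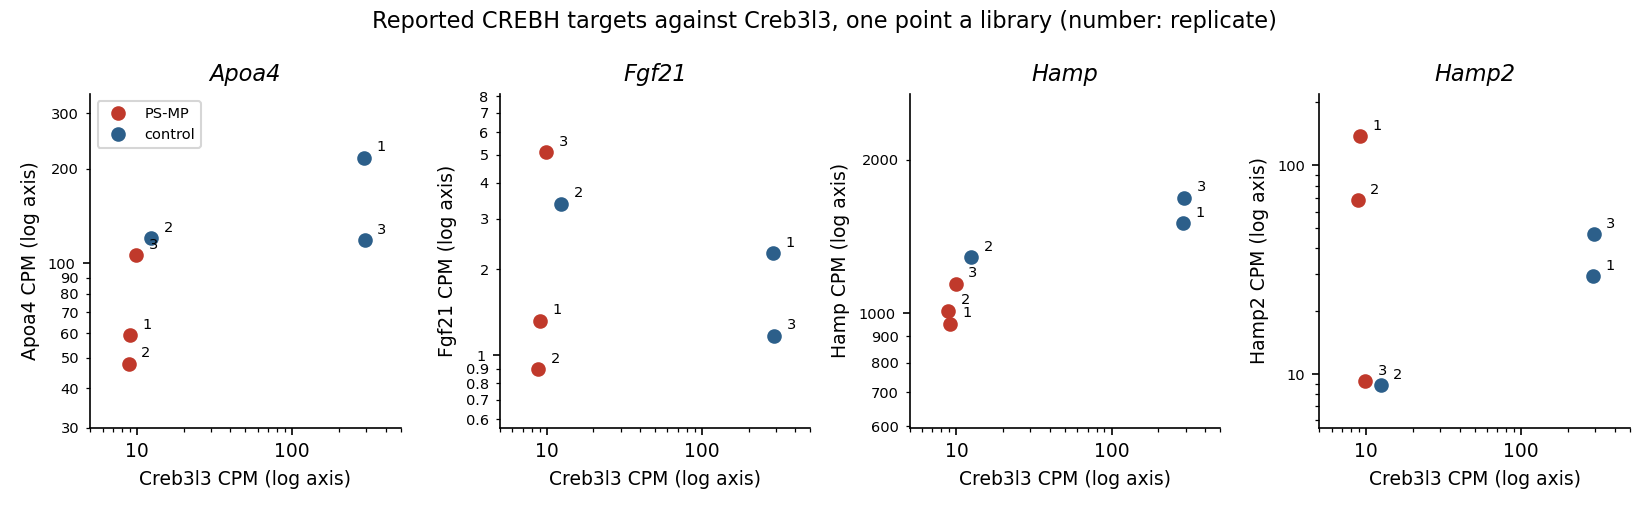
TMM-scaled CPM of Apoa4, Fgf21, Hamp and Hamp2 against that of Creb3l3, all on log axes, with 1 point for each PS-MP and control library and its replicate number. Creb3l3 divides the libraries into 4 at 8.82 to 12.4 CPM and 2 near 290 CPM, and the 4 low libraries span 48.0 to 120 CPM in Apoa4, 0.895 to 5.12 in Fgf21, 953 to 1288 in Hamp and 8.85 to 138 in Hamp2.

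Because the Creb3l3 levels form separate clusters of libraries, no correlation with its targets is given and the relation cannot be tested over 6 libraries. Seen library by library with TMM, Hamp fell from control replicates 1 and 3 to control replicate 2 and then PS-MP. Creb3l3 did the same, but the range of Hamp was narrow. Apoa4 and Creb3l3 had the same 3 libraries in the upper ranks, the controls, in another order. Within PS-MP both were highest in replicate 3, but the counting intervals of Creb3l3 overlapped there. Fgf21 and Hamp2 had another order altogether. By the root mean square difference of centred log2 CPM from Creb3l3, Apoa4 ranked 172 and Hamp 682 of 17661 other genes, while Mbtps1 ranked 4395, Mbtps2 8482, Fgf21 14369 and Hamp2 15023. The differences themselves were 1.85 for Apoa4, 2.04 for Hamp and 2.22 for Mbtps1, which hardly varied (SD 0.11 log2 units). Most of each difference is thus the wide span of Creb3l3 itself, and the ranks do not show that a gene followed it. In TMM-scaled CPM, 4 of the 7 genes (Creb3l3, Apoa4, Hamp and Mbtps1) had every PS-MP level under every control level, where 4.99% of all genes did. The reverse, every PS-MP level over every control level, was found for 0 of the 7 and for 6.24% of all genes. With library totals alone, every PS-MP level was under every control level for 1 of the 7, Creb3l3, and for 1.53% of all genes. Every PS-MP level was then over every control level for 0 of the 7 and for 17.5% of all genes.

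Other genes reported as CREBH targets were compared as a list of 24, of which 23 were tested. With edgeR, 0 of the 23 passed in either direction; 5 had an unadjusted p under 0.05, all lower in PS-MP, and DESeq2 and limma-voom called 0. Of all genes tested, 2.58% were lower at such a p. In all, 19 of the 23 lay below zero, where 47.2% of all genes did, with a median log2 fold change of -0.24, against 0.02 for all genes tested. The largest of the 4 above zero were Acaca (1.94, SE 1.67) and Apoa1 (0.97, SE 0.58), for which the diets overlapped. Apoa1 stood at 2797, 2556 and 6430 CPM in PS-MP and at 1165, 1180 and 3651 CPM in control. The genes with the smallest p encode enzymes that desaturate or lengthen fatty acids. Scd1, the stearoyl-CoA desaturase gene, stood at 1774, 2323 and 3283 CPM in PS-MP and at 6014, 3493 and 7464 CPM in control (log2 fold change -1.20, SE 0.35, edgeR adjusted p = 0.805). Elovl5, an elongase gene, stood at 219, 252 and 411 CPM in PS-MP and at 692, 427 and 560 CPM in control (-0.93, SE 0.29). Elovl6 stood at 10.7, 20.0 and 17.2 CPM in PS-MP and at 21.6, 32.9 and 27.9 CPM in control (-0.78, SE 0.27). Scd1 and Elovl5 had their lowest control value in control replicate 2, as Creb3l3 did, and Elovl6 had its highest there. The diets did not overlap for these 3 genes with TMM and overlapped with library totals alone. Since the 3 were picked for a small p, such a gap is partly built in. With TMM, 4 of the 23 had every PS-MP level under every control level, where 4.99% of all genes did. The reverse held for 0 of the 23 and for 6.24% of all genes.

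Cidec encodes a protein that coats lipid droplets. It was picked out with its values known, as the reported target nearest to Creb3l3 in pattern (root mean square difference 1.40, rank 9 of 17661). It stood at 4.69, 12.7 and 17.9 CPM in PS-MP and at 58.1, 13.8 and 41.4 CPM in control (log2 fold change -1.68, SE 0.64, edgeR adjusted p = 0.906). Control replicate 2 lay within the range of the PS-MP libraries. Apoc2, the activator of lipoprotein lipase, was not low there, with 113 CPM in control replicate 2, between 106 and 165 CPM in the other controls, and 64.8, 85.1 and 135 CPM in PS-MP. Control replicate 2 was the lowest of the controls for 12 of the 23 targets, for 48 of the 106 tested genes of all lists (45.3%), and for 36.9% of all genes tested.

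The CREB3 family and genes of proteins that share the proteases with CREBH were compared as a list of 14. Of the 14, 0 passed in edgeR and 0 had an unadjusted p under 0.05, the median log2 fold change was -0.07 (0.02 for all genes tested), and the interval of 12 lay inside 2-fold, as did 53.6% of all genes. Creb3, the founding member of the family, had a log2 fold change of -0.01 and Creb3l2 0.17. Creb3l4 had 0.96 (interval -1.17 to 3.09) at a low level, with 20, 19 and 18 counts in PS-MP and 10, 0 and 20 in control. Atf6, a stress sensor cut by both proteases, stood at 31.4, 61.7 and 51.9 CPM in PS-MP and at 58.2, 59.8 and 31.7 CPM in control. Gnptab, whose product is cut by the site-1 protease, had -0.31 (SE 0.15, adjusted p = 0.928), Srebf1, the sterol response factor of lipogenesis, -0.52 (SE 0.27), and Scap, the escort of that factor, -0.21 (SE 0.16). Stress genes of the endoplasmic reticulum, which signal the condition that activates CREBH, had 0 of 11 past the threshold and 0 at an unadjusted p under 0.05, with a median of -0.08. Hspa5, the gene of the chaperone BiP, stood at 279, 305 and 431 CPM in PS-MP and at 295, 446 and 353 CPM in control. Pdia4 had -0.26 (SE 0.12), Calr -0.21 and Herpud1 0.26.

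Around the targets, 0 genes passed in edgeR on the lists of lipoprotein lipase control (11 tested, median -0.04), FGF21 control and receptors (10 tested, median 0.22), hepcidin control (16 tested, median 0.01) and regulators of Creb3l3 with fasting genes (9 tested, median -0.18). On these lists 0 genes had an unadjusted p under 0.05. Mttp, which loads lipid on apolipoprotein B, had -0.42 (SE 0.21), Gpihbp1, the capillary anchor of lipoprotein lipase, 0.28 and Lpl 0.49. Fgfr1, a receptor gene of the FGF family, had 0.88 (SE 0.40), Ddit3, of the integrated stress response, 0.87 and Fgf1 -0.66. Smad1, which carries BMP signals to Hamp, had -0.26 (SE 0.13). Id1, a target of the same signals, had -0.71 (SE 0.37) and Bmp2 had 0.37, while the ferroportin gene Slc40a1 had 0.14 (interval -0.14 to 0.41). Vnn1 had -0.51 (SE 0.21) and Foxa2 0.32. Hnf4a, which encodes a nuclear receptor that drives Creb3l3, stood at 302, 297 and 363 CPM in PS-MP and at 375, 320 and 288 CPM in control.

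Clock genes differed widely between libraries of the same diet. Of 12 tested, 0 passed in edgeR and 1 (Per2) had an unadjusted p under 0.05, and the interval of 0 of the 12 lay inside 2-fold. Dbp, an output of the clock, stood at 35.7, 78.2 and 0.911 CPM in PS-MP and at 2.01, 2.23 and 44.3 CPM in control. The control libraries with Creb3l3 near 290 CPM, replicates 1 and 3, thus differed in Dbp (2.01 and 44.3 CPM), and replicates 1 and 2, which differed in Creb3l3, had like Dbp levels. Arntl, the gene of the clock factor BMAL1, stood at 3.96, 1.33 and 8.14 CPM in PS-MP and at 11.9, 13.1 and 3.37 CPM in control. Of the 3 PS-MP libraries, replicate 3 was the highest in Arntl and also in Fgf21, Pdk4 and G6pc. Per2 had a log2 fold change of 1.48 (SE 0.60), Per3 1.94 and Clock -0.87 (SE 0.38).

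**Figure D3:**
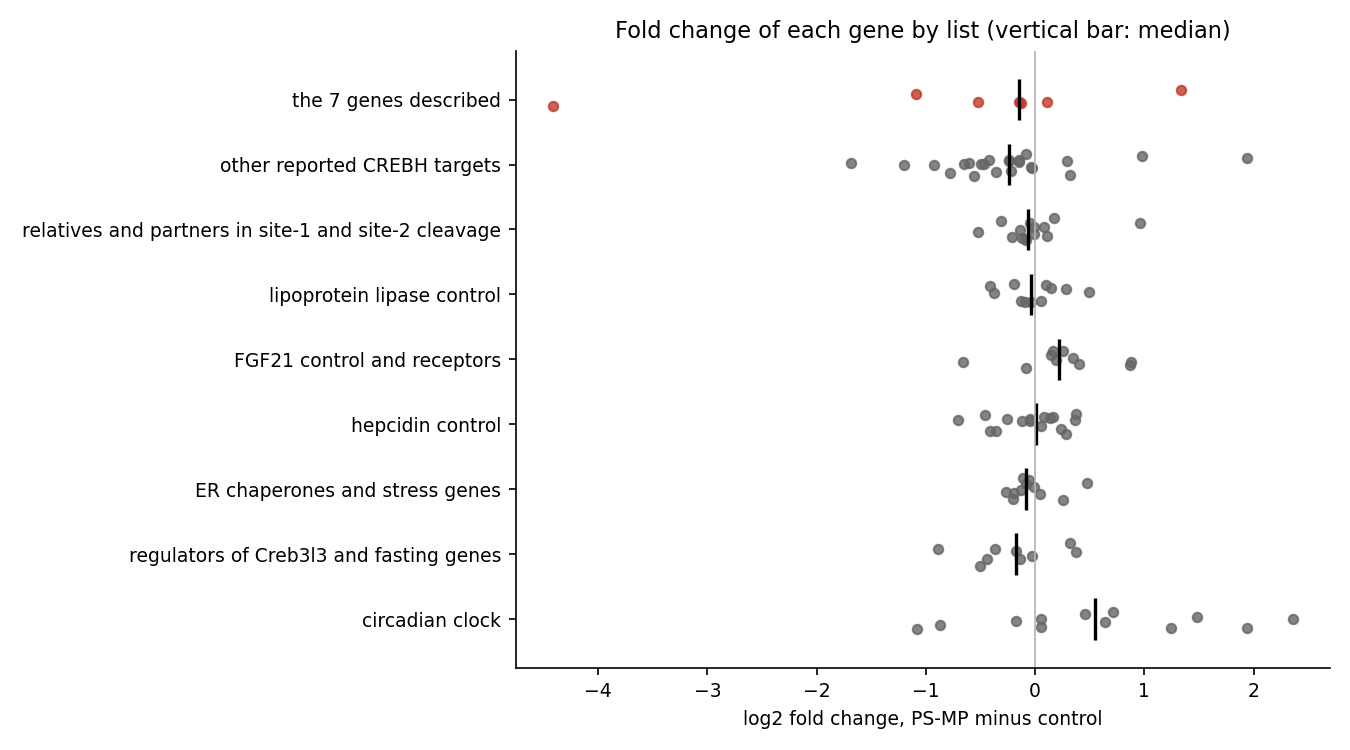
Log2 fold change, PS-MP minus control, of each gene by list on a linear axis, with the 7 genes described at the top in red and the other lists in grey. The black bar is the median of a list, and Creb3l3 at -4.42 lies apart from the listed genes, which run from -1.68 (Cidec) to 2.36 (Ciart).

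Among all genes tested, the named genes nearest to Creb3l3 in pattern were Dlec1, Cidea, Pcnx, Retn and Igkv12-44. Cidea encodes a lipid droplet protein related to that of Cidec and stood at 2.79, 9.38 and 22.2 CPM in PS-MP and at 81.4, 13.3 and 64.9 CPM in control, with a root mean square difference of 1.24 from Creb3l3. Dlec1 was nearer (0.88) at a low level, with 0.231, 0.328 and 0.584 CPM in PS-MP and 3.48, 0.788 and 5.47 CPM in control. Pcnx (1.30) had 63, 38 and 50 counts in PS-MP and 184, 35 and 297 in control, and the immunoglobulin segment Igkv12-44 (1.34) had 22, 25 and 24 counts in PS-MP and 61, 17 and 217 in control. Retn (1.32) encodes resistin, a hormone of fat cells in mice, and had 0 counts in each PS-MP library and 18, 11 and 35 in control. Of the other adipocyte markers, Adipoq had 0, 0 and 20 counts in PS-MP and 0, 0 and 2 in control, Plin1 had 0, 0 and 41 in PS-MP and 0 in each control library, and Lep had 0, 0 and 10 in PS-MP and 0 in each control library. Cfd, the fifth marker, had 511, 1969 and 398 counts in PS-MP and 635, 133 and 1260 in control. The 5 adipocyte markers summed to 6.20, 22.3 and 5.48 CPM in PS-MP replicates 1 to 3 and to 8.99, 2.37 and 12.3 CPM in control replicates 1 to 3. Most counts in this sum were of Cfd in every library. Among the controls the sum, like Creb3l3, Cidea and Cidec, was lowest in replicate 2, as were Cfd and Retn. Adipoq, Plin1 and Lep had 0 counts in control replicates 1 and 2 alike. These 3 genes were highest in PS-MP replicate 3, where the sum was the lowest of the PS-MP libraries. The part of fat cells in these patterns was not tested.

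The named genes nearest to the mirror image of Creb3l3 were Clec3b, Guca1b and Spata22, all at low levels. Spata22 had 109, 215 and 88 counts in PS-MP and 0, 127 and 0 in control replicates 1 to 3, so its counts were missing from the libraries in which Creb3l3 was high. Clec3b had 42, 15 and 44 counts in PS-MP and 0, 23 and 0 in control, and Guca1b had 22, 20 and 36 in PS-MP and 0, 11 and 0 in control.

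**Figure D4:**
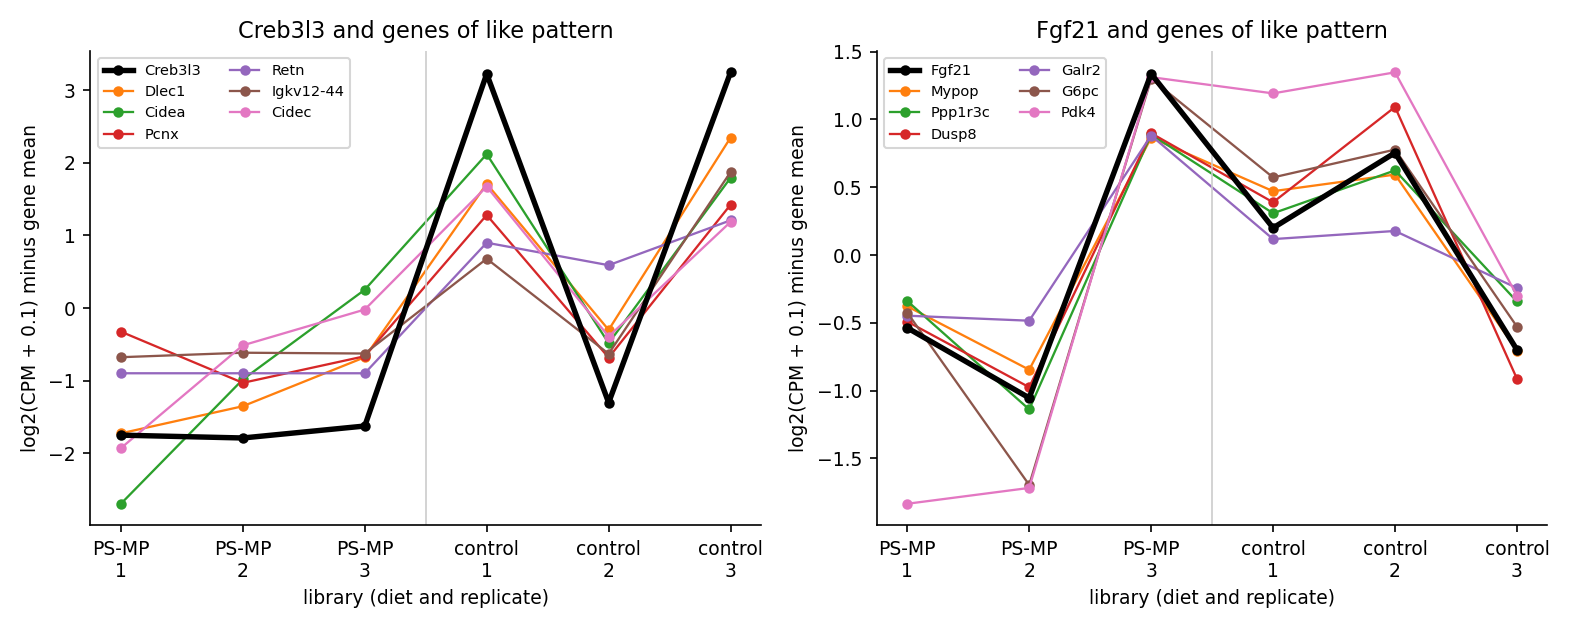
Log2 of CPM plus 0.1, minus the mean of each gene, in the 3 PS-MP libraries and then the 3 control libraries. The left panel shows Creb3l3 in black with its 5 nearest named genes and Cidec, which are high in control replicates 1 and 3. Retn drops little in control replicate 2, with 0.248, 0.181 and 0.331 CPM in control replicates 1 to 3 and 0 in each PS-MP library. The right panel shows Fgf21 in black with its 5 nearest named genes and Pdk4, which are high in PS-MP replicate 3 and control replicate 2.

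Apoa4 and Hamp2 also had nearer companions in pattern than Creb3l3, found by a search added after the values were seen. Atp13a1, which encodes an ATPase of the endoplasmic reticulum, was the 2nd nearest to Apoa4 (0.18), at 7.30, 7.89 and 12.1 CPM in PS-MP and 25.7, 16.6 and 14.4 CPM in control. Cyp2b9, a cytochrome P450 gene, was the 2nd nearest to Hamp2 (0.47), at 219, 106 and 34.8 CPM in PS-MP and 79.0, 15.6 and 123 CPM in control. Usp2, a rhythmic deubiquitinase gene, was the 3rd nearest (0.56), at 36.8, 57.8 and 2.64 CPM in PS-MP and 10.4, 3.66 and 24.7 CPM in control. Hamp2, Cyp2b9 and Usp2 were all lowest in PS-MP replicate 3 among PS-MP libraries and in control replicate 2 among controls.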

How the data were processed

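The authors deposited raw read counts per gene for each of 6 liver libraries. Per the labels' protocols, these were strand-aware libraries of poly(A) RNA. Of tools and builds, the processing notes of the submitters list bcl2fastq and GRCm39. No source used here gives the aligner, counter, annotation or strand setting, so reads of overlapping antisense genes could not be separated. For 67 symbols with several lines in a file, the lines were added up. Genes were filtered by filterByExpr, scaled by TMM and tested by the quasi-likelihood F test of edgeR 4.0.16 in R 4.3.3 with diet as the one term. The Benjamini-Hochberg adjustment covered the 17662 genes tested. DESeq2 1.42.0 and limma-voom 3.58.1 were alternatives. Intervals are 95%, from the standard error (SE) and moderated degrees of freedom (6.63 for most genes). Likeness of pattern used log2 CPM with a prior count of 2.

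The members and the 8 pathway lists were chosen with earlier results of these data known. Named were the 7 genes, the 3 list genes of smallest p in each list, the neighbours of Creb3l3, and the 5 genes nearest to Creb3l3 in pattern with the 3 nearest to its mirror image, leaving out predicted genes and pseudogenes. A list gene that this rule names is not reported here. Genes outside this rule are given to compare a target or a role and were chosen after their values were seen. Promoter sequences are from RefSeq (GRCm38.p6), matched by symbol for 7 of 7 genes. Markers of 10 cell types were summed by library.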

Additional observations from a re-analysis of the deposited data

How the results depend on the processing

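Over 15 alternatives each, Creb3l3 stayed between -4.97 and -3.49 (log2 fold change), Apoa4 between -1.51 and -0.75, Hamp between -0.62 and -0.32 and Hamp2 between 0.44 and 1.91, all with the sign of the fit reported. Direction turned for Mbtps1 (0.067) and Mbtps2 (0.094) with library size only, and for Fgf21 with limma-voom (-0.12), the replicate block (-0.26), and on leaving out control replicate 3 (-0.21) or PS-MP replicate 3 (-1.05, in a range of -1.05 to 0.51 with a library left out); the cause was not tested. The number of genes called, 2 with edgeR, was 187 with DESeq2, 1 with limma-voom and 0 with the replicate block (945 genes at an unadjusted p under 0.05), and 0 to 4 with a library left out, the 0 being without control replicate 3 (745 genes at an unadjusted p under 0.05). The number of the 7 genes called, 0 with edgeR, was 1 (Creb3l3) with DESeq2 and 0 to 1 with a library left out, the 1 being Creb3l3 without control replicate 2. List genes called stayed at 0 in all 15. The labels do not say whether equal replicate numbers pair the libraries. Deviations of same-numbered libraries from their diet means correlated at 0.11, 0.14 and -0.13, which shows no pairing but cannot exclude it. Of the 5 genes named nearest to Creb3l3, 4 stayed among the nearest 5 with a prior count of 0.5 or 5 and 5 with library size only. Control replicate 2 was the lowest control for 45.3% to 50.9% of list genes across scalings, and for 36.9% to 42.8% of all genes. Depth limits Fgf21, at 79 to 438 counts, more than the other 6 genes.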
